A study of Mus musculus with 9 samples.

Results

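The 10 genes described here, Klf2, Klf3, Klf4, Klf6, Klf7, Klf9, Klf10, Klf11, Klf13 and Klf16, encode Krüppel-like transcription factors. A peak was counted as theirs when the deposited annotation gave 1 of these symbols as its gene or when it lay within 50 kb of the gene. Of 253457 peaks in 9 lists, 791 met this rule, and merging peaks that shared at least 1 bp left 186 of 92495 regions. Of the 791 peaks, 234 lay farther than 50 kb away and carried the symbol alone, and 225 lay within 50 kb but carried the symbol of another gene.

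The peaks come from Omni-ATAC-seq, which reads open chromatin from the places where a transposase can insert adapters, on nuclei of brain endothelial cells (ECs). Every mouse was on the C57BL/6J background, carried the tamoxifen-inducible CDH5-CreERT2 driver and received tamoxifen. EC-K4KO mice also carried Klf4-flox alleles, and WT Cre mice did not. The groups were young WT Cre (n = 2 libraries), young EC-K4KO (n = 3), old WT Cre (n = 2) and old EC-K4KO (n = 2), with males and females used in the study. The labels give age only as young or old. The CDH5 promoter, that of VE-cadherin, is active in endothelium of all organs, so the driver is not specific to brain. The labels do not say which libraries came from separate animals, so p-values measure the spread between these libraries.

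KLF proteins share zinc fingers at the C-terminus and bind GC-rich and CACCC-type DNA, where members can replace or oppose one another. In ECs, Klf2 and Klf4 are induced by laminar flow through the MEKK3-MEK5-ERK5 kinases and MEF2 factors, and both maintain an anticoagulant, anti-inflammatory state. The question followed here is how accessible chromatin at Klf4 and at its paralogs compared between genotypes and ages.

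A peak list has no common depth, so strength was taken as the rank of a peak within its own list by −log10 p, where rank 1 is the strongest peak. The lists of young WT Cre held 6157 and 9598 peaks, those of young EC-K4KO 23848 to 27992, those of old WT Cre 43893 and 32555, and those of old EC-K4KO 45026 and 39079. Depth is unknown because read counts were not analysed here. Age coincides with the library prefix in the labels, so the effects of age and library set cannot be told apart. Of 15 endothelial markers, 8 had a promoter peak in each young WT Cre list, 12 to 14 in young EC-K4KO and 14 or 15 in old lists, while 8 microglia markers had none in any list. Over all protein-coding genes the share with one was also lowest in young WT Cre, at 20.7% and 28.4%, against 41% to 54.6% in the other lists. Among the 6157 strongest peaks of each list, endothelial markers with one numbered 8 and 8 in young WT Cre and 8, 7 and 8 in young EC-K4KO. In old lists they numbered 9 and 8 in either genotype. Of 8 markers each, mural genes had 0 to 4, astrocyte genes 0 to 4, oligodendrocyte genes 0 to 2 and neuron genes 0 to 3 promoter peaks per list, most in old EC-K4KO replicate 1, although the libraries were made from flow-sorted live ECs. Their part in the results was not tested. In bulk nuclei, fewer cells with an open site and less opening per cell cannot be told apart.

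Klf4 itself, the deleted gene, kept a promoter peak in every library. Within the 5324 bp of the gene (chr4:55527143-55532466, minus strand), peaks covered 33 and 312 bp in young WT Cre, 299, 324 and 307 bp in young EC-K4KO, 515 and 305 bp in old WT Cre, and 354 and 324 bp in old EC-K4KO. These bases lay in exon 1 apart from 236 bp of exon 3 in old WT Cre replicate 1. Exons 2, 4 and 5 held no peak in any library. The mean difference within age over the whole gene was 33.2 bp more in EC-K4KO (two-sided exact permutation test over 60 arrangements, p = 0.55). The exon 1 difference was 92.2 bp (same exact permutation test, p = 0.05), and so was that of the whole gene when each list was held to its 6157 strongest peaks. Young WT Cre replicate 1 carried most of the exon 1 value, which was 22.5 bp without it (exact permutation test, p = 0.25). The whole-gene value depended on single libraries, since it was −36.5 bp without young WT Cre replicate 1, −19.2 bp without old WT Cre replicate 2, 103 bp without young WT Cre replicate 2 and 85.8 bp without old WT Cre replicate 1. The deposited peaks therefore give no check of the deletion, because most exons carried no peak in WT Cre either.

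All 10 genes had a peak over the promoter, taken as 1000 bp upstream to 100 bp downstream of an annotated start site, in all 9 libraries. Of 21924 protein-coding genes, 4169 did (19.0%). Under the promoter class of the deposited annotation, which is set by the peak centre, 7 of the 10 had one in every library, with Klf2 in 4, Klf11 in 6 and Klf13 in 8 libraries. The 186 regions held 13 promoter regions of these genes, 15 promoters of neighbouring genes, which are not described further, and 158 distal regions. Where a gene had more than 1 promoter region, the strongest was followed as the lead region. The lead regions of Klf3 and Klf16 also cover the start sites of the noncoding neighbours C230096K16Rik and Gm26710.

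The upstream DNA of 4 of these promoters is shown because it spans the range of KLF-type sites among them, from none at Klf9 to 10 at Klf3. The letters are the 250 bases before the RefSeq start site (GRCm38.p6), 5′ to 3′ on the gene's strand, and capitals mark CCNCNCCC on either strand, the letters searched for KLF and SP factors, with overlapping matches run together. The entries lie at chr8:72318812-72319061 (plus strand) for Klf2, chr4:55532476-55532725 (minus) for Klf4, chr5:64803271-64803520 (plus) for Klf3 and chr19:23140976-23141225 (plus) for Klf9.
Klf2: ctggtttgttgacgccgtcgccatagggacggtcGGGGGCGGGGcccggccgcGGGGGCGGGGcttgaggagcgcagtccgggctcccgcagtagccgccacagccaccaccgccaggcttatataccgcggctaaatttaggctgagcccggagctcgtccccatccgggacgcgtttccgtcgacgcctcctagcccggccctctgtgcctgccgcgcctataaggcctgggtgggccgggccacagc
Klf4: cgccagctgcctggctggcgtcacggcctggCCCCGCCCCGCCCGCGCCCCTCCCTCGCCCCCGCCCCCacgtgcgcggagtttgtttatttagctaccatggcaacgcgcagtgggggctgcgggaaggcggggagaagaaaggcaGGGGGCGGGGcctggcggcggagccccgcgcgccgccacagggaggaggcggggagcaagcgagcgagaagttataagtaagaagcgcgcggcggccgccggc
Klf3: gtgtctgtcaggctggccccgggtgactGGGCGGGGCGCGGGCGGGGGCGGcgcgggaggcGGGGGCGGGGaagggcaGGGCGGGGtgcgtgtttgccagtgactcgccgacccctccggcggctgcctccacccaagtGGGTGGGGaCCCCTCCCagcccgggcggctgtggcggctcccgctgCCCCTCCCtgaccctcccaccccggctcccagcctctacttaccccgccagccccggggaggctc
Klf9: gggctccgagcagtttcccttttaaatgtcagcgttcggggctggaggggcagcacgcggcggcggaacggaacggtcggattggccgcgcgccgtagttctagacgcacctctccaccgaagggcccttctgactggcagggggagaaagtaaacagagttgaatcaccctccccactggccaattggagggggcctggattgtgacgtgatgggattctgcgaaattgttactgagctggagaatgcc

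Of 32851 RefSeq promoters cut to the same length, 45.9% held at least 1 such site, 6.81% at least 5 and 0.95% at least 10. Entries were found for 8 of the 10 genes, and Klf10 and Klf16 have none in the table. Klf3 held 10 sites, Klf4 9, Klf7 8, Klf11 and Klf13 5 each, Klf2 4 and Klf6 2. The GC content of the 8 entries ran from 59.2% at Klf7 to 78.4% at Klf3. Only Klf2 held the MEF2 letters, CTA and TAG with any 4 bases between them, which occur in 3.2% of promoters. They begin 118 bases before the start site, inside the Klf2 promoter peak region, and are in capitals in the stretch printed here (chr8:72318934-72318963, plus strand).
Klf2 MEF2 stretch: tataccgcggCTAAATTTAGgctgagcccg
The AP-1 letters TGANTCA (6.75% of promoters) occurred once, in Klf9, and the ETS letters CCGGAA (12% of promoters) and CREB letters TGACGTCA (1.55%) in none of the 8. These matches are descriptions of letters and not of bound sites.

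In young mice, the Klf4 promoter peak was the only lead promoter of the 10 whose rank changed with genotype. It stood at rank 3588 and 2467 in young WT Cre and at 911, 1155 and 1414 in young EC-K4KO. All young EC-K4KO libraries lay above both young WT Cre libraries in strength. The log2 rank was 1.38 lower, thus stronger, in EC-K4KO (−1.38 ± 0.33 SE, limma adjusted p = 0.0254 over 4872 regions with a peak in every library). Ranked among those 4872 regions alone, the difference was −1.32 (adjusted p = 0.0332). Of all 4872 regions, 2.09% had a lower rank number in young EC-K4KO and 6.14% a higher one, and the median difference of all regions was 0.13.

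In old mice the Klf4 promoter peak stood at rank 5797 and 4166 in WT Cre and at 3387 and 3502 in EC-K4KO. The old EC-K4KO libraries again lay above both old WT Cre libraries, by −0.51 ± 0.36 (SE) on the log2 scale, but the difference did not pass the test (adjusted p = 0.999). Over both ages the difference was −0.95 ± 0.25 (adjusted p = 0.0574), and it passed without young WT Cre replicate 2 (−1.08, adjusted p = 0.019). The deposited fold enrichment of the Klf4 promoter peak was 4.05 and 4.62 in young WT Cre, 6.15, 7.84 and 7.49 in young EC-K4KO, 4.51 and 5.38 in old WT Cre, and 6.89 and 6.78 in old EC-K4KO. It was higher in every EC-K4KO library than in any WT Cre library.

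Fold enrichment also differed between libraries over all shared regions. Their median fold was 5.02 and 5.34 in young WT Cre, 5.29, 8.67 and 8.72 in young EC-K4KO, and 8.27 to 9.9 in the old libraries. Divided by that median, the Klf4 fold was 0.806 and 0.865 in young WT Cre against 1.16, 0.904 and 0.858 in young EC-K4KO, where the groups overlap. In old mice the ratio was 0.546 and 0.612 in WT Cre and 0.696 and 0.706 in EC-K4KO, without overlap. When regions were ranked by fold in place of −log10 p, the young Klf4 difference was −0.41 (adjusted p = 0.591). The young call was also lost, at nearly the same size, without old EC-K4KO replicate 1 (adjusted p = 0.0544), old EC-K4KO replicate 2 (0.055) or young EC-K4KO replicate 2 (0.0712), and at −1.11 without young WT Cre replicate 1 (0.0827).

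**Figure D1:**
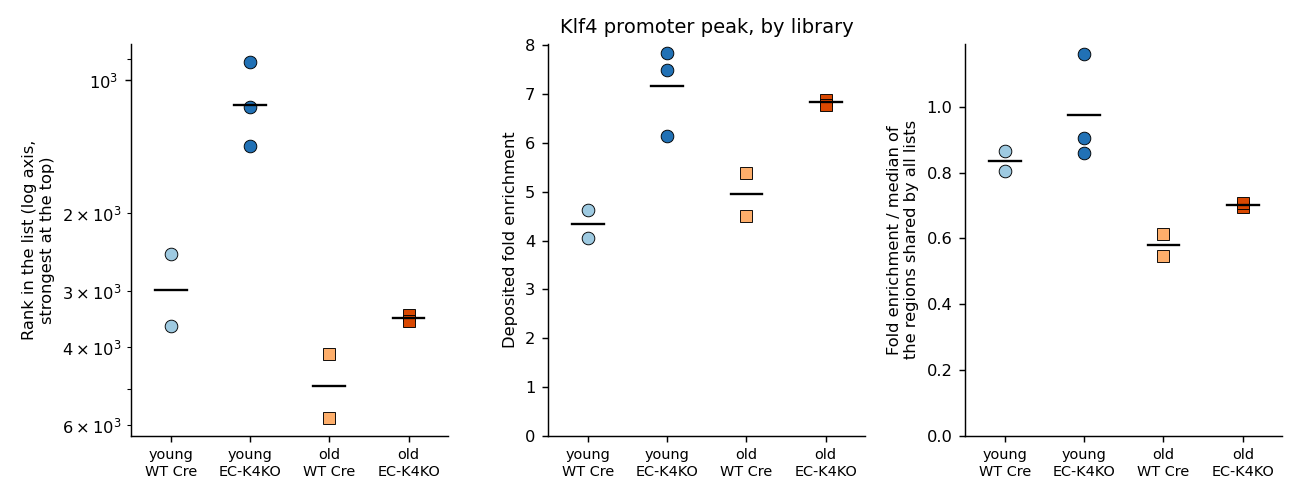
Klf4 promoter peak in each of the 9 libraries (points) with the group mean (bar, geometric for rank). Left, rank in the list on a log axis with the strongest at the top; middle, deposited fold enrichment; right, fold divided by the median of the regions shared by all lists. EC-K4KO points lie above WT Cre points within each age in the left and middle panels, and the young groups overlap in the right panel, at 0.858 against 0.865.

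None of the other 9 lead promoters changed rank with genotype in young mice, in old mice or over both ages by the limma test at an adjusted p under 0.05. Without young WT Cre replicate 1, Klf16 passed in young mice (1.47, adjusted p = 0.0372), the direction of a weaker place in EC-K4KO. By unadjusted p under 0.05, 3 of the 10 lead promoters differed in young mice, 1 in old mice and 3 over both ages, as did 1246, 253 and 877 of all 4872 regions. Over both ages, 2.07% of the 4872 regions had a higher and 0.390% a lower rank number in EC-K4KO. Among old libraries only 1 region of 4872 was called, with a higher rank number (0.0205%), and none with a lower one. No region was called for a difference between the old and the young genotype effect (0% in either direction, 565 at unadjusted p under 0.05).

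Klf2, the closest functional partner of Klf4 in ECs, had the strongest promoter of the family in all libraries but young EC-K4KO replicate 3, where Klf7 led. It stood at rank 83 and 129 in young WT Cre, 63, 61 and 69 in young EC-K4KO, 105 and 129 in old WT Cre, and 137 and 134 in old EC-K4KO. The 3 young EC-K4KO ranks were the best of the 9, and the old EC-K4KO ranks the weakest, within a span of 61 to 137. The difference was −0.69 ± 0.54 in young mice (adjusted p = 0.442) and 0.22 ± 0.59 in old mice (adjusted p = 0.999), so a change of Klf2 with genotype was not shown at this spread.

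Klf6, a gene induced by vascular injury, had ranks of 456 and 254 in young WT Cre, 574, 972 and 968 in young EC-K4KO, 439 and 873 in old WT Cre, and 1124 and 2029 in old EC-K4KO. By rank, each EC-K4KO library was weaker than each WT Cre library at both ages. As a percent of the list the genotypes overlapped at both ages, and the sign of the young difference turned. Young values were 7.41% and 2.65% for WT Cre against 2.41%, 3.84% and 3.46% for EC-K4KO. The deposited fold also overlapped at both ages, with 6.47 and 6.92 against 5.93, 7.62 and 7.18 in young mice. Divided by the median of shared regions, it was 1.29 and 1.3 against 1.12, 0.879 and 0.823, without overlap. The log2 rank was 1.26 ± 0.48 higher in young EC-K4KO (adjusted p = 0.119), 1.29 ± 0.53 in old (adjusted p = 0.897) and 1.27 ± 0.36 over both ages (adjusted p = 0.0715), and so missed the threshold. Ranked by fold it passed, at 2.11 in young mice (adjusted p = 0.0338) and 1.54 over both ages (adjusted p = 0.0448), on a scale where the median of all regions was itself 0.31 and 0.36 higher. It also passed over both ages without young EC-K4KO replicate 1 (1.40, adjusted p = 0.0483) or young WT Cre replicate 1 (1.48, adjusted p = 0.0396).

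Klf7, best known from axon growth, had the single strongest peak of the family, at rank 40 in young EC-K4KO replicate 3. The other young EC-K4KO ranks were 111 and 156, against 193 and 297 in young WT Cre, 1153 and 390 in old WT Cre, and 289 and 485 in old EC-K4KO. The young groups did not overlap, yet the difference of −1.44 ± 0.65 did not pass the test (adjusted p = 0.176). Klf11, a TGF-β-inducible repressor, stood at 1376 and 628 in young WT Cre and at 713, 199 and 656 in young EC-K4KO, with overlap (−1.04, adjusted p = 0.24). Klf10, its nearest relative, stood at 286 and 225 against 101, 72 and 301, also with overlap.

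The remaining 4 promoters overlapped between genotypes in young mice. Klf3, a repressor that works through CtBP, stood at 259 and 962 in young WT Cre and at 355, 955 and 1269 in young EC-K4KO. Klf9, a target of glucocorticoid and thyroid hormone receptors, stood at 296 and 601 against 859, 635 and 506. Klf13, first described in T cells, stood at 615 and 420 against 367, 372 and 463, and Klf16, a repressor first found at a dopamine receptor gene, at 2356 and 437 against 1145, 1369 and 1143. In each of these 4 genes the young WT Cre libraries themselves lay farther apart than the genotype means.

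**Figure D2:**
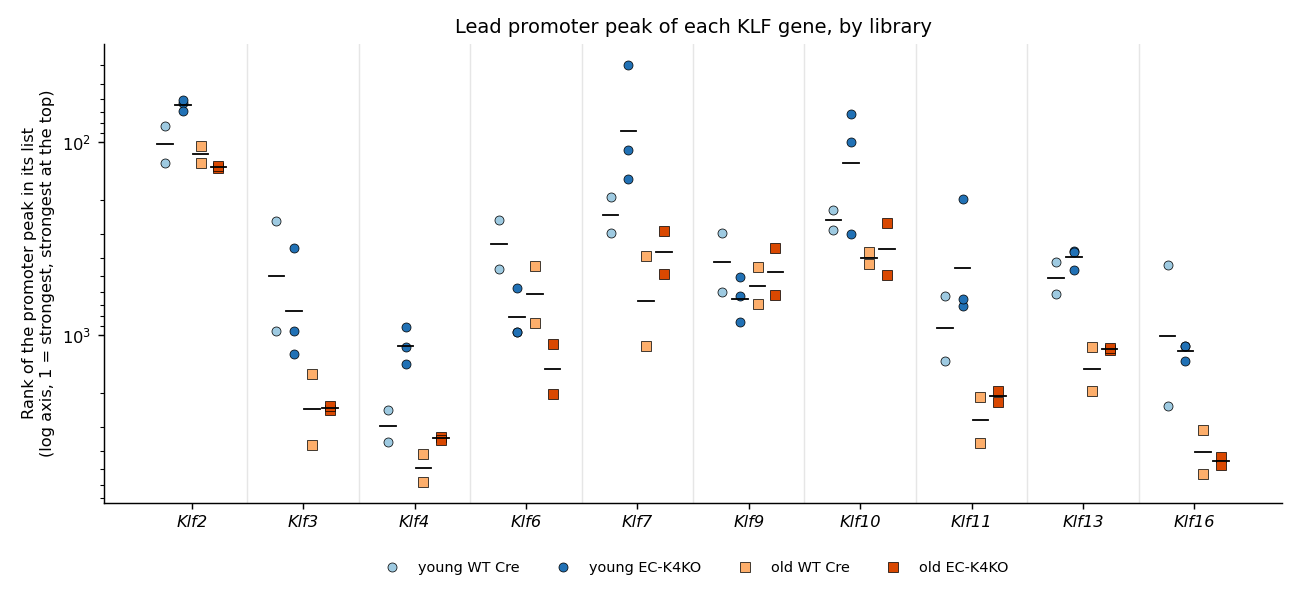
Rank of the lead promoter peak of each KLF gene (x axis) in each of 9 libraries, on a log axis with the strongest at the top; circles are young and squares old libraries, light colours WT Cre and dark colours EC-K4KO, and bars are geometric means. Klf4 is the gene whose young groups separate by the limma test, and most genes stand lower in the old libraries.

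Between old and young libraries, lead promoters of 6 genes had a higher rank number, thus a weaker place in the list, in old libraries, and none had a lower one. These were Klf3 (log2 difference 1.98 ± 0.45, adjusted p = 0.00431), Klf16 (1.95 ± 0.39, 0.00211), Klf11 (1.89 ± 0.40, 0.00296), Klf7 (1.78 ± 0.48, 0.0117), Klf13 (1.58 ± 0.31, 0.00193) and Klf4 (1.16 ± 0.25, 0.00299). Klf2, Klf6, Klf9 and Klf10 did not pass the test. Of all 4872 regions, 21.9% had a higher and 9.67% a lower rank number in old libraries. The median of the 10 lead promoters was 1.37, against 0.17 over all regions. Those regions include distal ones, and promoters of other genes were not compared as a set, so the shift cannot be called particular to KLF genes.

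The values behind these calls were 3722, 1599, 2471 and 2334 for Klf3 in the 4 old libraries (WT Cre, then EC-K4KO), against 259 to 1269 in the 5 young ones. Klf16 stood at 5279, 3132, 4292 and 4769 in old libraries and at 437 to 2356 in young ones. Klf11 stood at 3648, 2114, 2233 and 1953 against 199 to 1376, and Klf13 at 1967, 1165, 1203 and 1179 against 367 to 615. In these 4 genes every old library was weaker than every young library, whereas Klf4 and Klf7 overlapped between ages. Klf9 stood at 445, 698, 624 and 358 in old and 296 to 859 in young libraries, with full overlap, and Klf10 at 374, 430, 263 and 490 against 72 to 301.

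Old lists were longer than young WT Cre lists, so the scale matters here. Ranked among the 4872 shared regions alone, the median of all regions was 0.02 and the same 6 genes passed, from 0.84 for Klf4 to 1.83 for Klf3, while the share of all calls with a higher rank number went from 69.4% to 49.6%. As a percent of the list, the median of all regions moved to −1.33, 0.49% of calls were higher, and none of the 6 passed. On that scale Klf4 turned to −0.345 and Klf9 alone passed. Ranked by fold, the median was 0.74, 87% of calls were higher, and 9 genes passed. Between ages, without old EC-K4KO replicate 2 (adjusted p = 0.0641) or old WT Cre replicate 1 (adjusted p = 0.0757), Klf7 no longer passed.

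A similar shift applied between young genotypes. As a percent of the list the median of all regions was −1.61 in young EC-K4KO, 4219 of 4222 calls were lower (0.0711% higher, against 74.6% by rank and 90.9% by fold), and 8 KLF promoters passed, against 1 by rank. Over both ages 0.272% of calls were then higher, against 84.2% by rank.

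Peak width gave another view. In young EC-K4KO, 4 of the 10 lead promoters were covered over more bases than in young WT Cre and none over fewer, with 59.4% of all regions wider, none narrower and a median of all regions of 0.61 on the log2 scale. Klf16 was covered over 628 and 762 bp in young WT Cre and over 1315, 1828 and 1806 bp in young EC-K4KO (1.24 ± 0.16, adjusted p = 0.00188). Klf6 was covered over 578 and 579 bp against 940, 938 and 1029 bp (0.74 ± 0.11, adjusted p = 0.00312). Klf11, at 847 and 872 against 1226, 1051 and 1331 bp (0.48 ± 0.12, adjusted p = 0.0141), and Klf9, at 486 and 570 against 611, 801 and 716 bp (0.42 ± 0.15, adjusted p = 0.0417), widened by less than the median region. The genotypes did not overlap in any of these 4 genes. The Klf9 call was lost without any library other than young WT Cre replicate 2 or young EC-K4KO replicate 1 (adjusted p = 0.0652 to 0.199), and the Klf11 call without young WT Cre replicate 1 (0.0519).

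Klf4 was covered over 633 and 943 bp in young WT Cre, 936, 961 and 944 bp in young EC-K4KO, 910 and 949 bp in old WT Cre and 993 and 966 bp in old EC-K4KO (young difference 0.29 ± 0.16, adjusted p = 0.133, and 0.00231 without young WT Cre replicate 2, at 0.58). Its width thus did not pass the test with all libraries, and neither did that of Klf2 (835 to 994 bp over all 9 libraries) or Klf7 (811 to 903 bp). In old mice no lead promoter and no region of the 4872 was called for width (0%, 102 at unadjusted p under 0.05). Over both ages Klf6 and Klf16 were wider in EC-K4KO (0.41 and 0.63), with 31.0% of all regions wider and none narrower. Neither passed without old EC-K4KO replicate 2 or old WT Cre replicate 1, Klf6 alone passed without old EC-K4KO replicate 1, and 4 genes passed without young WT Cre replicate 2. Between ages, Klf10, Klf11 and Klf16 were wider in old libraries (0.49, 0.42 and 0.79), with 67.8% of all regions wider, 0.0205% narrower and a median of 0.47. Klf10 did not pass without old EC-K4KO replicate 1 (adjusted p = 0.054), and without young WT Cre replicate 2, 5 genes passed.

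At Klf16 the genotype difference in width itself differed between ages, by −1.21 ± 0.24 in old against young mice (adjusted p = 0.0303), with old libraries at 1833 and 1806 bp in WT Cre and 1863 and 1858 bp in EC-K4KO. Of all regions, 8.62% shared that direction and 0.0205% had the opposite one. Young WT Cre was the only group with a narrow Klf16 peak. The interaction was lost when any library other than young WT Cre replicate 2 or young EC-K4KO replicate 1 was left out (adjusted p = 0.0507 to 0.131).

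**Figure D3:**
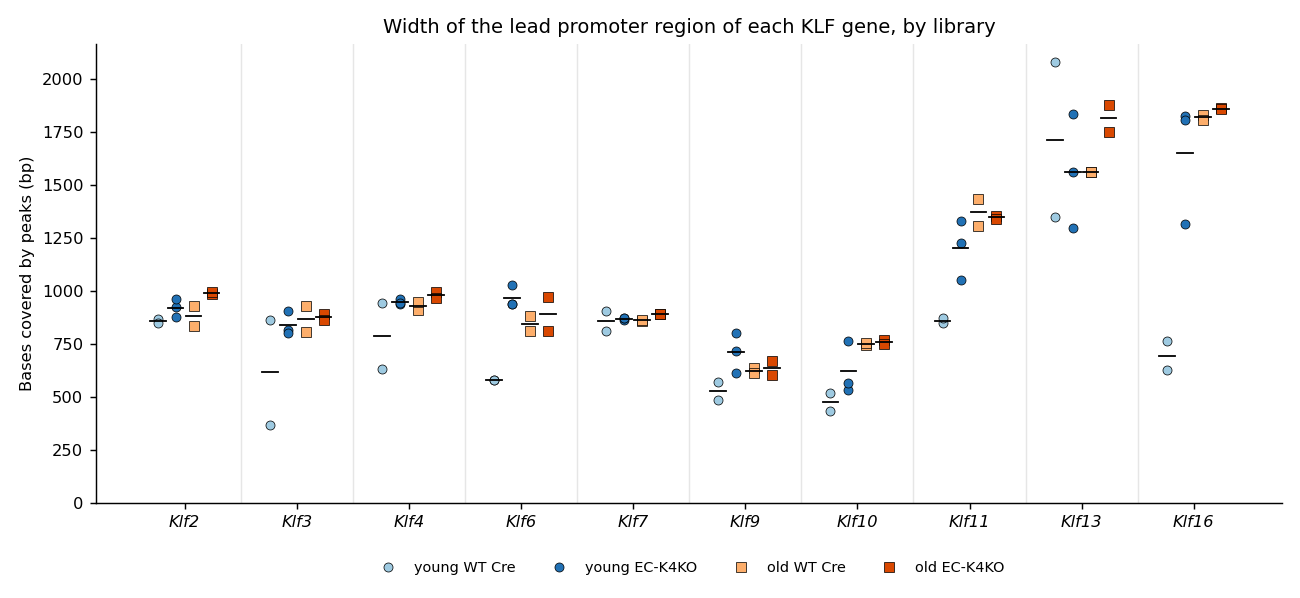
Bases of the lead promoter region covered by peaks (y axis, bp) for each KLF gene in each of 9 libraries, with symbols as in the plot of ranks and bars for group means. At Klf16 the young WT Cre libraries lie at 628 and 762 bp and all other libraries at 1315 bp or more.

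Second promoter regions were found at 3 genes. At an alternative Klf10 start site (chr15:38299018-38299772), ranks were 2726 and 1273 in young WT Cre, 317, 640 and 1489 in young EC-K4KO, and 4674 to 7299 in old libraries, so old libraries were weaker (2.36 ± 0.38, adjusted p = 0.000625) and the young genotype difference of −1.47 did not pass (adjusted p = 0.0874, or 0.0362 and 0.0364 without young EC-K4KO replicate 3 or young WT Cre replicate 2). At the alternative Klf13 start site (chr7:63924900-63925805), coverage was 453 and 474 bp in young WT Cre and 775, 855 and 796 bp in young EC-K4KO (0.80 ± 0.11, adjusted p = 0.0021). At Klf3, a downstream start site (chr5:64811537-64813645) had a peak in young EC-K4KO replicate 3 and in the 4 old libraries only.

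Distal regions varied far more between libraries than promoters did. Peaks over the members' promoters numbered 12 or 13 in every library, while distal peaks numbered 16 and 22 in young WT Cre, 39, 51 and 66 in young EC-K4KO, 92 and 77 in old WT Cre, and 119 and 101 in old EC-K4KO. Ordered by list length, each longer list held more distal KLF peaks, with the exception of old WT Cre replicate 1 against old EC-K4KO replicate 2. The distal share of all peaks was likewise lowest in young WT Cre, at 32.6% and 39.5%, against 59.1% to 73.1% in the other libraries. Of the 158 distal regions, 61 had a peak in 1 library only, 29 overlapped the gene itself, 75 were centred within 50 kb of a start site and 50 beyond 100 kb, the farthest at 588 kb. Among the strongest 6157 peaks of each list, the length of the shortest, distal KLF peaks numbered 15 and 14 in young WT Cre, 9, 7 and 11 in young EC-K4KO, 10 and 8 in old WT Cre, and 10 and 9 in old EC-K4KO. At equal length the young WT Cre lists thus held the most, and all 10 genes still had a promoter peak in every list. Distal peaks over all genes were not counted per library at this length.

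**Figure D4:**
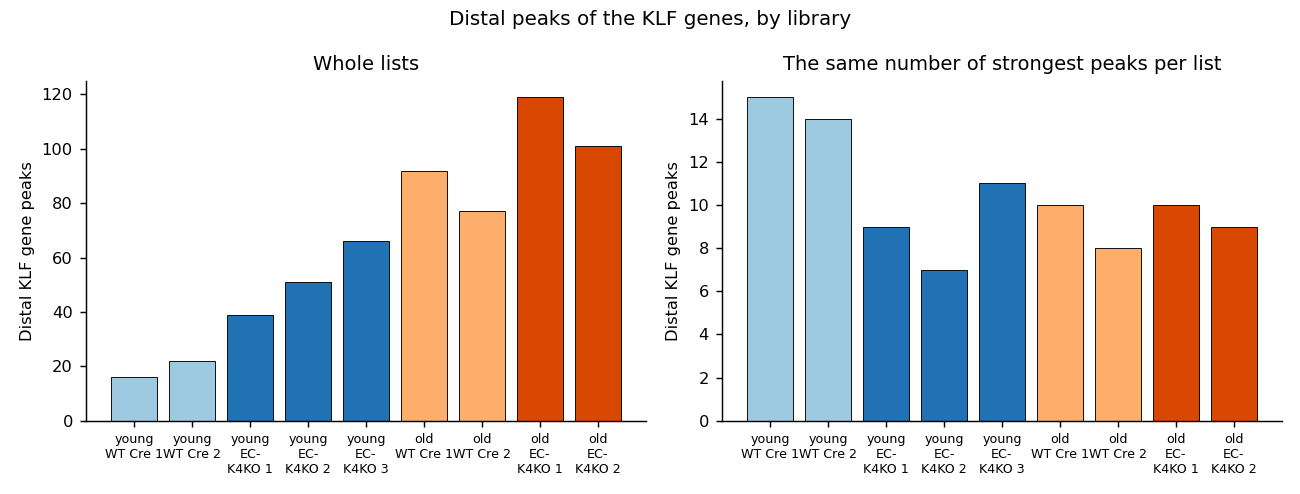
Distal peaks of the 10 KLF genes in each library, counted in whole lists (left) and among the 6157 strongest peaks of each list (right). Young WT Cre has the fewest distal peaks on the left, at 16 and 22, and the most on the right, at 15 and 14.

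A distal region was counted as gained in EC-K4KO within an age when at least 2 EC-K4KO libraries and no WT Cre library had a peak in it, and lost in the opposite case. With 3 against 2 libraries no exact test can go below p = 0.1, and with 2 against 2 none below 0.33, so none was run. In young mice 24 of the 158 regions (15.2%) in 9 genes were gained and 0 lost, while 7.13% of all 77306 distal regions were gained and 0.00129% lost. In old mice 14 (8.86%) were gained and 0 lost, against 5.18% and 0.457% of all. Among regions with a peak in at least 2 libraries of a group of that age, the gained share was 24 of 45 (53.3%) in young mice, against 69.8% of all such regions, and 14 of 91 (15.4%) in old mice, against 18.0%. Both old WT Cre lists, which were longer than the young WT Cre lists, held a peak in 21 of the 24 young gains. The same share over all young gains was not counted, so it cannot be said whether 21 is unusual.

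List length bears on these counts directly. Only 4 of the 24 had a rank in any young EC-K4KO library that fell within the 9598 peaks of the longer young WT Cre list. With all lists held to 6157 peaks, 3 regions were gained (3 of 14 in at least 2 libraries of a group, 21.4%, against 12.2% of all such regions) and 4 lost (28.6%, against 7.63%) in young EC-K4KO. In old EC-K4KO 1 of 10 was then gained (10%, against 8.82%) and 0 lost (against 7.46%). With whole lists, 8 were gained in young EC-K4KO without replicate 2 of that group and 6 without its replicate 3. Where leaving out a library left a group with 1, a peak in that library was enough, so those counts follow a looser rule. Under it 39 were gained in old mice without old EC-K4KO replicate 2 and 12 were lost without old WT Cre replicate 2. Without old WT Cre replicate 1, 22 were gained with a single WT Cre library to compare.

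**Figure D5:**
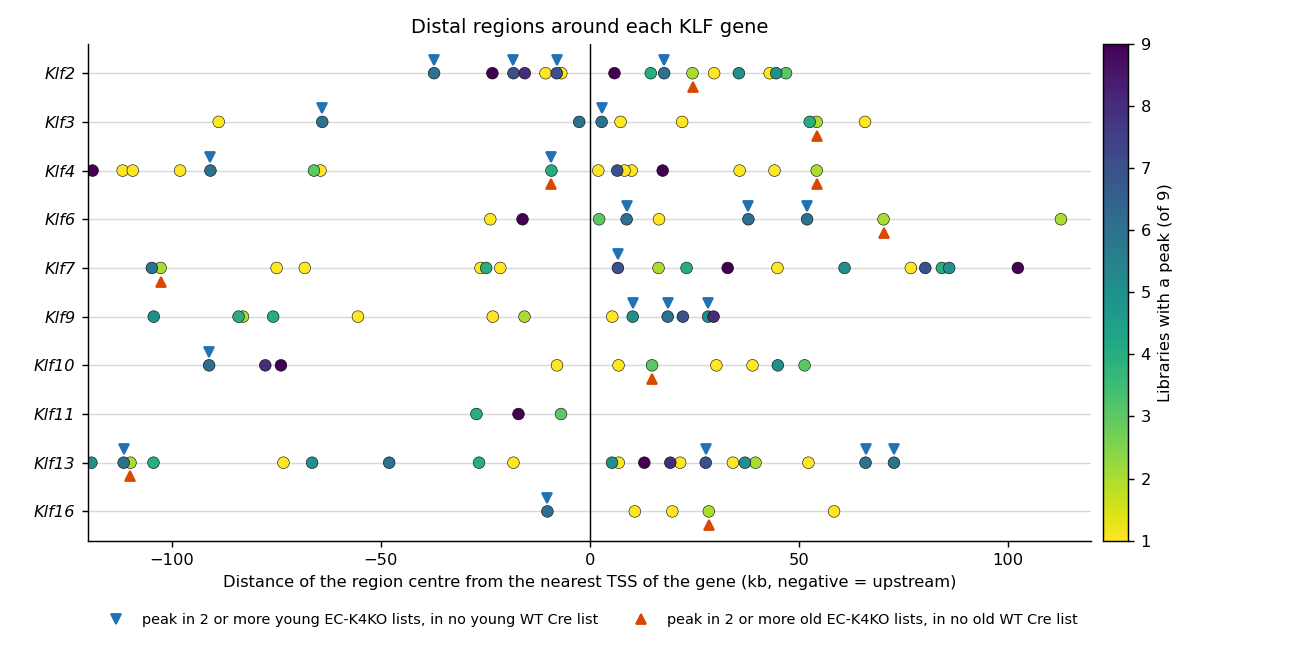
Distal regions near each KLF gene, placed by the distance of the region centre from the nearest start site (x axis, kb, negative upstream) and coloured by the number of libraries with a peak. Triangles mark regions gained in young (blue, above) or old (orange, below) EC-K4KO in whole lists; the Klf4 region 9.14 kb upstream carries both.

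Distal regions open in every library numbered 11 (6.96% of the 158), in 7 of the 10 genes, against 1.31% of all distal regions. The 3 genes with none were Klf3, Klf9 and Klf16. The central 300 bases of 4 distal regions are shown. Of these, 3 were among the regions present in every library, and the fourth was the only one gained at both ages in whole lists. Letters are from the plus strand of GRCm38, and capitals mark CCNCNCCC on either strand. The regions lie 23.3 kb upstream of Klf2 (letters from chr8:72295617-72295916), 119 kb upstream of Klf4 (chr4:55651205-55651504), 17.0 kb upstream of Klf11 (chr12:24634101-24634400) and 9.14 kb upstream of Klf4 (chr4:55541459-55541758). All 4 are intergenic in GENCODE M21 and in the deposited annotation, which names the same gene for each.
Klf2 upstream 23.3 kb: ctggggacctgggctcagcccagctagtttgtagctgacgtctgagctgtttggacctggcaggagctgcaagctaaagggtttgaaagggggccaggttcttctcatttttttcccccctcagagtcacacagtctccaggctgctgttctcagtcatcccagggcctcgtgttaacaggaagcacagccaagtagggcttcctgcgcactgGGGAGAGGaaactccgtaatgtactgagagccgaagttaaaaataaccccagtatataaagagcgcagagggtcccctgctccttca
Klf4 upstream 119 kb: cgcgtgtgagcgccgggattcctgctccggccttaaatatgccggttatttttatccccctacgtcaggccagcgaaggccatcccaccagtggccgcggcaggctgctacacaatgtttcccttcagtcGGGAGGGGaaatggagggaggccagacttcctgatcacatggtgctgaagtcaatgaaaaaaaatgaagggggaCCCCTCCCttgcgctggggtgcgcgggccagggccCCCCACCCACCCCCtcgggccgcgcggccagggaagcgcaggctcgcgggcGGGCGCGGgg
Klf11 upstream 17.0 kb: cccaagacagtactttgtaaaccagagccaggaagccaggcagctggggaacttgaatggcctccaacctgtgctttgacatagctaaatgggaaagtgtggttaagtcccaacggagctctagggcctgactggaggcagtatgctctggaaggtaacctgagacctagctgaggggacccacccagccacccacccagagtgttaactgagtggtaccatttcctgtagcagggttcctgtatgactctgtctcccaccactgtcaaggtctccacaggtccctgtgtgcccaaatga
Klf4 upstream 9.14 kb: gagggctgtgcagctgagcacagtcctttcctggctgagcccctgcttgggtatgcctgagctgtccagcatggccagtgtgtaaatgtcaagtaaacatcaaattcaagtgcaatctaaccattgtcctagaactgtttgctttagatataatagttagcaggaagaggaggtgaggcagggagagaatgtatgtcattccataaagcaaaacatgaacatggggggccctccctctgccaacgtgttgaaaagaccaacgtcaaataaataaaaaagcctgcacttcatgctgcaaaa
The site letters occurred 5 times in the Klf4 region at 119 kb, once in the Klf2 region and not in the other two. Of the central 300 bases of all 1012 distal regions open in every library, 48.2% held them.

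The ranks of the Klf2 region at 23.3 kb were 195 and 666 in young WT Cre, 218, 599 and 705 in young EC-K4KO, 462 and 637 in old WT Cre, and 702 and 462 in old EC-K4KO, and the groups overlapped throughout. Its coverage was 432 and 427 bp in young WT Cre and 538 to 845 bp elsewhere (young difference 0.63 ± 0.16, adjusted p = 0.0151, and 0.0571 without young WT Cre replicate 1). A second Klf2 region, 5.94 kb downstream of the start, stood at 2732 and 5118 in young WT Cre, 3142, 6071 and 7612 in young EC-K4KO, and 9712 to 12882 in old libraries, all weaker than the young ones (1.31 ± 0.26, adjusted p = 0.00219). Among shared regions alone this difference was 0.42 and did not pass (adjusted p = 0.0661), and as a percent of the list it was −0.192.

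Between ages, 5 of the 11 regions had a higher rank number in old libraries and none a lower one, against 21.9% and 9.67% of all 4872 regions. Besides this Klf2 region and the Klf4 region described next, they were the Klf13 intronic region at 13.1 kb (0.93, adjusted p = 0.00094), the Klf7 intronic region at 33.0 kb (0.92, adjusted p = 0.0034) and the region 16.1 kb upstream of Klf6 (0.75, adjusted p = 0.016, and 0.0552 to 0.0673 without old EC-K4KO replicate 1, old EC-K4KO replicate 2 or old WT Cre replicate 1). Among shared regions alone only the Klf4 region passed, and as a percent of the list these last 3 regions were at −0.576, −0.581 and −0.754.

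The Klf4 region at 119 kb was among the strongest peaks of every list. It stood at 101 and 50 in young WT Cre, 62, 75 and 78 in young EC-K4KO, 606 and 359 in old WT Cre, and 151 and 226 in old EC-K4KO. All old libraries were weaker than all young ones (2.04 ± 0.41, adjusted p = 0.00225, and 2.05 with adjusted p = 0.00646 among shared regions). By rank the old EC-K4KO libraries lay between old WT Cre and young libraries, though the old genotype difference of −1.34 ± 0.61 did not pass (adjusted p = 0.943). Another Klf4 region, 17.5 kb downstream, kept ranks of 1111 to 2654 across all 9 libraries and was called in no rank contrast.

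The Klf11 region at 17.0 kb was the only distal region of the 11 whose rank differed with genotype over both ages. Over all 4872 regions, 2.07% had a higher and 0.390% a lower rank number in EC-K4KO. The Klf11 region stood at 1225 and 1046 in young WT Cre, 3537, 3599 and 2207 in young EC-K4KO, 1247 and 1847 in old WT Cre, and 3808 and 4211 in old EC-K4KO. Each EC-K4KO library had a weaker rank than each WT Cre library. The −log10 p of the peak was 10.9 and 13.0 in young WT Cre and 13.3, 21.5 and 31.3 in young EC-K4KO. In old libraries it overlapped, at 101 and 56.7 in WT Cre against 80.2 and 61.4 in EC-K4KO. The log2 difference was 1.41 ± 0.25 over both ages (adjusted p = 0.0165), 1.43 ± 0.34 in young mice (adjusted p = 0.0256) and 1.40 ± 0.38 in old mice (adjusted p = 0.453). Among shared regions alone it was 1.2 over both ages (adjusted p = 0.0608) and 1.28 in young mice (adjusted p = 0.0397), and as a percent of the list the young difference was −0.314. The call over both ages was lost without old EC-K4KO replicate 1 or 2, old WT Cre replicate 1 or young EC-K4KO replicate 2 (adjusted p = 0.0689 to 0.121), and the young call without either old EC-K4KO library or young EC-K4KO replicate 2 (0.0562 to 0.0949). The Klf11 promoter itself did not differ between genotypes by the test (−0.72, adjusted p = 0.356).

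In young EC-K4KO, 2 further distal regions of the 11 had a weaker rank. A higher rank number in young EC-K4KO was called at 6.14% of all 4872 regions, and a lower one at 2.09%. Only regions with a peak in every list were tested, so ranks could reach 6157 and 9598 at most in young WT Cre. In young EC-K4KO they could reach 23848 to 27992, and the part of this limit in the differences was not tested. A region in an intron of Klf13, 13.1 kb from its start and named E030018B13Rik in the deposited annotation, went from 4370 and 3667 in young WT Cre to 8992, 9958 and 9582 (1.25 ± 0.22, adjusted p = 0.00696). The Klf4 region 581 kb upstream went from 4251 and 4301 to 6549, 8203 and 10149 (0.93 ± 0.25, adjusted p = 0.0377). Among shared regions alone these were 0.40 (adjusted p = 0.0348) and 0.29 (adjusted p = 0.0804), and as a percent of the list −0.492 and −0.805. The Klf4 call was lost without any library other than young WT Cre replicate 2 or young EC-K4KO replicate 1 (adjusted p = 0.0583 to 0.124). Coverage of the Klf4 region was 227 and 240 bp in young WT Cre and 808, 819 and 577 bp in young EC-K4KO (1.64 ± 0.17, adjusted p = 0.000802), so that its peak was wider and weaker in rank. Coverage of the Klf13 region was 327 and 519 against 438, 1318 and 1325 bp (1.15, adjusted p = 0.065, and 0.00218 without young EC-K4KO replicate 1).

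The only region gained at both ages in whole lists, 9.14 kb upstream of Klf4 (chr4:55541249-55541968), was a weak peak. It stood at 13854 and 14670 in young EC-K4KO replicates 2 and 3 and at 29520 and 30534 in old EC-K4KO, and had no peak in young EC-K4KO replicate 1 or in any of the 4 WT Cre libraries. Its young ranks lie beyond the end of both young WT Cre lists, and its old ranks lie within both old WT Cre lists, at 43893 and 32555 peaks. At Klf2, regions 18.2 kb and 7.88 kb upstream were gained in young EC-K4KO at ranks 4471, 5822 and 7281, and 4601, 7881 and 5823, and were the only gained regions whose best rank fell within the shorter young WT Cre list. Both had peaks in all 4 old libraries, at 4108 to 8561 and at 6145 to 8385, so in young WT Cre alone they had none.

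With lists held to 6157 peaks, the 3 young gains were both of these Klf2 regions and a Klf7 region 184 kb upstream, which stood at 7565 in young WT Cre replicate 2, 6005, 6818 and 5270 in young EC-K4KO and 2241 to 3976 in old libraries. The 1 old gain was the Klf2 region 18.2 kb upstream, at 8561 and 7861 in old WT Cre and 4108 and 4723 in old EC-K4KO. At this length that region was thus gained at both ages. The 4 lost in young EC-K4KO were the Klf13 intronic region, the Klf4 region at 581 kb, and Klf7 regions 33.0 kb and 102 kb downstream. These 4 had peaks in every whole list, and their loss is one of rank.

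Of 16 further KLF and SP genes, 7 (Klf1, Klf14, Klf17, Sp6, Sp7, Sp8 and Sp9) had no promoter peak in any library, and 5 to 9 had one in each library. The 4 that could be tested, Sp1, Sp2, Sp3 and Sp4, were not called for genotype, and Sp4 alone had a weaker promoter rank in old libraries (1.66 ± 0.33, adjusted p = 0.00222). Among 10 genes upstream of Klf2 and Klf4, 7 could be tested, and Map3k3, which encodes MEKK3, had a weaker promoter rank in young EC-K4KO (2.30 ± 0.60, adjusted p = 0.0335) while the other 6 did not pass for genotype. Between ages, Mef2a (1.64) and Mef2d (1.97), which encode MEF2 factors, had weaker ranks in old libraries. Among 20 genes known as KLF2 or KLF4 targets, the number with a promoter peak was 8 and 7 in young WT Cre, 10, 12 and 15 in young EC-K4KO and 16 or 17 in old libraries. The share of all 21924 protein-coding genes with one was likewise lowest in young WT Cre, at 20.7% and 28.4%, with 41%, 46.9% and 48.2% in young EC-K4KO and 50.9% to 54.6% in old libraries. With lists held to 6157 peaks, a setting chosen after seeing the data, the targets with a peak numbered 8 and 7, then 7, 6 and 7, and 6 in each old library. Of 7 tested, Cldn5, the main tight junction claudin of brain ECs, had a weaker rank in young EC-K4KO (1.64 ± 0.39, adjusted p = 0.0246), and the other 6, Nos3, Thbd, Edn1, Tjp1, Cdh5 and Plat, did not pass for genotype. Cldn5 (1.41), Tjp1 (1.78) and Plat (0.78) had weaker ranks in old libraries. None of the upstream or target genes was called for genotype in old mice. Beside these calls, 6.14% of all 4872 regions had a higher rank number in young EC-K4KO and 21.9% in old libraries. The rank calls in these lists were not repeated with libraries left out or on other rank scales.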

How the data were processed

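The authors' methods name TrimGalore for trimming, Bowtie2 for mapping to mm10, Picard and SAMtools for removing duplicates and poorly mapped reads, and MACS2 for broad peaks, called in each library on paired fragments. Each deposited list gives a score, a fold enrichment (a ratio to local background), a −log10 p and a −log10 q, set by the authors' peak caller within that library, and the deposited annotation gives a score, a gene name, a class and a distance to the start site. The authors' test on counts (DiffBind with DESeq2) was not rerun, since read counts were not analysed here.

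Peaks overlapping by 1 bp or more in any libraries were joined into regions. Each library's best rank by −log10 p in a region, and the bases its peaks covered, were fitted on a log2 scale with limma (version 3.58.1, R 4.3.3; group means of all 9 libraries, empirical Bayes with trend) over the 4872 regions with a peak in every library, with Benjamini-Hochberg adjustment over all of them and a threshold of 0.05. A difference is EC-K4KO minus WT Cre or old minus young, so a negative rank difference means a stronger place. Start sites came from GENCODE M21, promoter entries and genome letters from RefSeq GRCm38. The fit was checked on simulated data.

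All 10 members were named, with distal regions that were present in every library, gained or lost, or the best ranked of a member. The members, gene lists and printed sequences were chosen with earlier results of these data known. Alternatives were each library left out, a replicate block, peaks with −log10 q of at least 2, rank by fold, rank among shared regions, percent of the list, regions in at least 5 libraries, a stricter merge, lists of equal length, windows of 20 and 100 kb, and the deposited promoter class.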

Additional observations from a re-analysis of the deposited data

Results flagged for a closer look

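The groups hold 2 or 3 libraries, so no library was tested for standing apart from its group. The tested regions of these genes were 12 promoter and 11 distal regions. At 5 of them the genotype difference in log2 width differed between ages by the limma interaction test. Each time the difference was smaller in old mice, the direction of 8.62% of all 4872 regions. At the alternative Klf13 start site the old effect minus the young effect was −0.739 ± 0.16 (SE, adjusted p = 0.0372). At the Klf16 promoter it was −1.21 ± 0.24 (adjusted p = 0.0303). At the distal region 581 kb upstream of Klf4 it was −1.43 (adjusted p = 0.019), at that 16.1 kb upstream of Klf6 it was −1.36 (adjusted p = 0.0328), and at that 33.0 kb into Klf7 it was −1.29 (adjusted p = 0.0339). In these 5 regions the young WT Cre libraries had the narrowest peaks. Leaving out single libraries ended the call for 7 of 9 libraries at the Klf13 start site and at Klf16, 6 at the Klf6 and Klf7 regions and 4 at the Klf4 region, all 4 old libraries among them in each case.

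At 4 regions every EC-K4KO library lay on one side of both WT Cre libraries in young mice and on the opposite side in old mice. How many of all tested regions did so was not counted, so the 4 have no background to be read against. None of the 4 passed the interaction test. For log2 rank, the interaction was −1.53 (adjusted p = 0.189) at the Klf13 intronic region, 0.907 (adjusted p = 0.692) at the Klf2 promoter and −0.985 (adjusted p = 0.339) at the Klf7 region 102 kb downstream. For width it was −0.392 (adjusted p = 0.119) at the Klf4 region 119 kb upstream.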

How the results depend on the processing

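With each library left out, the lead promoters called by rank numbered 0 to 1 over both ages and in young mice, 0 in old mice, 5 to 7 between ages and 0 for the interaction, and by width 0 to 4 over both ages and 2 to 5 between ages. Distal regions gained ranged from 6 to 30 and lost from 0 to 1 in young mice, and from 14 to 39 and from 0 to 12 in old mice (where 1 library of a group was left, a peak in it sufficed), and the Klf4 gene difference from −36.5 to 103 bp. As a percent of the list, 6 promoters passed over both ages, 8 in young mice, 1 between ages and 4 for the interaction. On that scale the sign turned for the young difference at the Klf6 promoter (−0.48), Klf11 region (−0.314), Klf13 region (−0.492) and Klf4 region at 581 kb (−0.805). It also turned for the age difference at the Klf4 promoter (−0.345), the Klf2 region at 5.94 kb (−0.192) and the Klf13, Klf6 and Klf7 regions (−0.576, −0.754, −0.581), and for the interaction at the Klf13 and Klf7 regions (0.0609, 0.604). Ranked by fold, 1 promoter passed over both ages, and the sign turned for the young difference at the Klf2 promoter (0.978), Klf11 promoter (0.233) and second Klf10 promoter (0.261) and for Klf11 over both ages (0.267). With regions in at least 5 libraries, whose median young difference was 0.78, 3 promoters passed over both ages and 4 in young mice. At equal list length 3 distal regions were gained and 4 lost in young mice, and 1 gained in old mice. Dividing by list length moves every rank of a library alike; for the other settings the cause was not tested. Of 40 promoter differences (10 genes in 4 contrasts), 11 changed sign as a percent of the list, 15 by fold and 1 among shared regions, and 0 with a stricter merge or a −log10 q of at least 2. Width over regions in at least 5 libraries was not run, because absent peaks have no width.

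Same-numbered libraries did not deviate together: correlations of their deviations from the group means ran from −0.0228 to 0.121. With the replicate block, 1 promoter passed by width over both ages, against 2, and 7 by rank between ages, against 6. The young Klf4 difference was −1.54 (adjusted p = 0.0467). Regions called by rank went from 401 to 115 in young mice and from 120 to 25 over both ages.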
